A study of Caenorhabditis elegans with 6 samples.

Results

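The oocyte coat and eggshell genes described here are 10 of the 20392 genes in the table of counts, taken by WormBase symbol: *cpg-1*, *cpg-2*, *cbd-1*, *chs-1*, *perm-2*, *perm-4*, *egg-1*, *egg-2*, *egg-3* and *mbk-2*. All 10 had a row of their own. The libraries were made from total RNA of *Caenorhabditis elegans* at the first larval stage (L1), 3 of them from strain N2, which is wild type, and 3 from strain XA6227, labelled mrg-1 -/-. *mrg-1* encodes a chromodomain protein that binds chromatin. The mutant larvae were the offspring of homozygous adults, so that mothers and larvae alike were mutant. Those mothers, 2000 to 4000 for each replicate, were picked by hand as animals that did not roll and so lacked the balancer, a chromosome that keeps the intact gene in the stock. Wild-type mothers, in similar number, were washed off plates. Picking and washing therefore cannot be told apart from genotype. Embryos freed with hypochlorite hatched in M9 buffer over 18 h and were then fed for 2 h and 30 min. The input to each library was 2 ng of RNA. The labels do not name the *mrg-1* allele, and each group is a single strain.

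The wild-type libraries held 19238422 to 39063186 counts and the mutant libraries 20917771 to 24123189. Levels are given as CPM, counts relative to library size after scaling with edgeR's TMM factors, and 3 counts, taken as the floor of detection in a library, equal 0.110 to 0.144 CPM. The share of counts in mitochondrially encoded genes was 10.64%, 23.12% and 45.56% in N2 libraries 1, 2 and 3, and the mutant libraries held 8.42% to 12.43%. Wild-type library 3 stood apart from every other library, with a chi-square statistic per gene of 390.4 to 751.9 in its pairs, against 59.56 to 74.22 among the mutant libraries. Wild-type library 2 gave 250 to 313.1 in its pairs with wild-type library 1 and the mutant libraries. This statistic used the unscaled counts of all genes, mitochondrial ones included, so it grows with the depth of a library. *mrg-1* itself stood at 15.9 to 30.2 CPM in the N2 libraries and at 2.11 to 5.61 CPM in the mutant ones. Markers of larval tissues, 17 genes of muscle, intestine, pharynx, neurons and epidermis, summed to 4647 to 10499 CPM in N2 and 10670 to 12537 CPM in the mutant. The muscle and pharynx genes *unc-54*, *unc-15*, *myo-1*, *myo-2* and *myo-3* held most of these sums. In the edgeR test used below, 0 of the 15 tested genes were called. At an unadjusted edgeR p under 0.05, 4 were higher and 0 lower, against 19.5% of all tested genes in either direction. DESeq2 called 1 higher, *myo-3* (adjusted p = 0.0198), and limma-voom 0. Of the 15 fitted changes, 13 were above 0 and 2 below, those of epidermal *elt-1* and *elt-3*. Their median log2 fold change was 0.66, beside -0.03 over all tested genes. Early zygotic embryo markers, 14 genes, summed to 0.183 to 3.65 CPM in N2 and 2.43 to 11.5 CPM in the mutant. *vet-2* alone gave 8.6 of the 11.5 CPM, and *tbx-35*, *tbx-38* and *pes-10* had no count in any library.

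The *C. elegans* eggshell is laid down in layers around the oocyte at fertilization. The outermost, vitelline layer is present on the oocyte before fertilization. A chitin layer and then a layer of chondroitin proteoglycans form inside it, followed by a lipid-rich permeability barrier. The enzymes and coat proteins are made in the adult germ line and their messages are known as maternal products. An L1 larva holds a pair of primordial germ cells and has no oocytes. RNA of these genes in a larva can be what is left from the mother or can be made by the larva, and counts from whole larvae cannot tell these apart.

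The members' levels covered a wide range, with *mbk-2* far above the rest. It stood at 245 CPM or more in every library, while the other 9 genes lay between 0 and 25.9 CPM. *mbk-2* alone held 84.83% to 93.42% of the counts of the 10 genes in a library. Levels of different genes are compared per kb of the deposited gene length. On that scale *mbk-2* averaged 71.9 CPM per kb in the wild type, above 90.8% of the 13460 tested genes. *cpg-2* (4.79), *cbd-1* (3.84), *cpg-1* (3.71) and *egg-3* (3.52 CPM per kb) followed, and their wild-type libraries overlap one another, so that no order among these 4 stands beyond the spread. *chs-1* averaged 0.964, *egg-2* 0.257, *egg-1* 0.105 and *perm-4* 0.0243 CPM per kb, and *perm-2* had no wild-type count. Of the 60 values of 10 genes in 6 libraries, 11 were 0 counts, spread over 5 genes. The deposited lengths differ from the exon bases annotated in WBcel235 for all 10 genes, most for *mbk-2* (4181 against 4843 bases, with 14 annotated transcripts) and *perm-4* (1319 against 1106 bases).

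**Figure D1:**
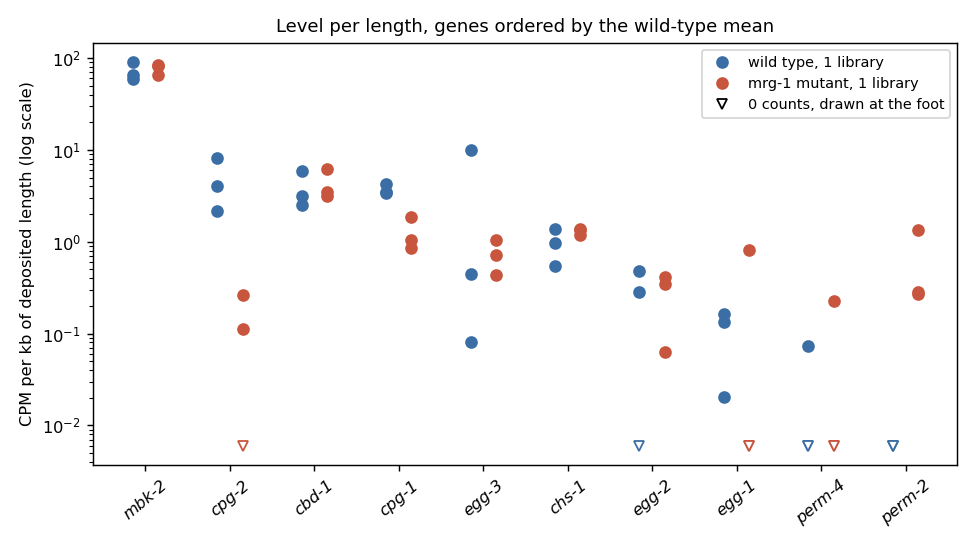
Level per kb of deposited length (vertical axis, CPM per kb, log scale) of each gene in each library, wild type in blue and *mrg-1* mutant in red; open triangles mark libraries with 0 counts. *mbk-2* stands above the other genes in every library, and the libraries of *cpg-2* and *cpg-1* separate by genotype.

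The comparison between the genotypes asks which of these messages differ at this stage when *mrg-1* is missing. *cpg-2* fell in the mutant. Of the other members tested, *cpg-1* was lower in every mutant library than in any wild-type one but did not pass the test, and *cbd-1*, *chs-1*, *egg-2*, *egg-3* and *mbk-2* overlapped between the groups. A total of 7 members had enough counts to be tested, with 13460 genes in all, and 1 of the 7 was called (edgeR quasi-likelihood test, Benjamini-Hochberg adjusted p under 0.05), against 2.60% of all tested genes called in either direction, 0.847% called lower and 1.75% called higher. A count of 1 in 7 is too small to read as a result about the group. The groups did not overlap, mutant lower, in 2 of the 7, against 12.0% of all tested genes, and mutant higher in 0 of the 7, against 14.4%. The median log2 fold change of the 7 was 0.09, beside -0.03 over all tested genes. Nothing in the labels says whether the replicates came from separate cultures beyond the series calling them biological, so p-values measure the spread between these libraries.

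**Figure D2:**
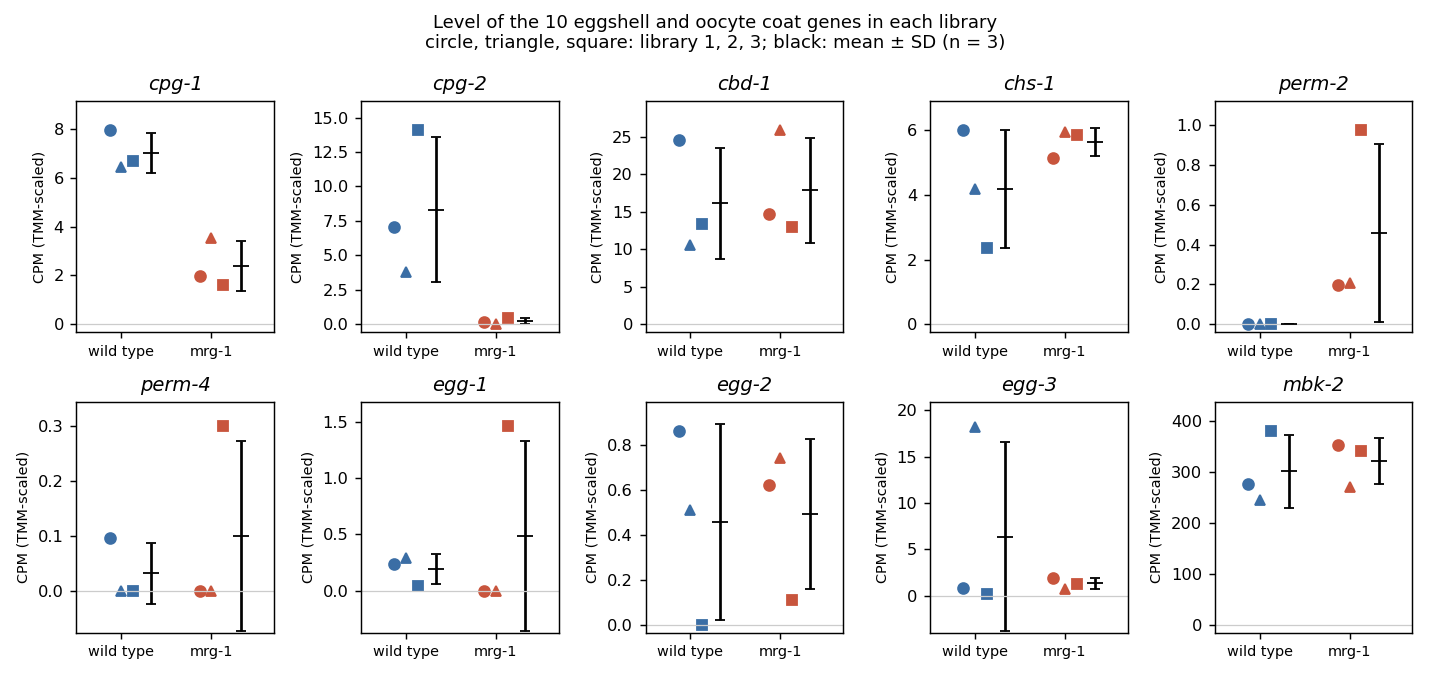
Level of each of the 10 genes in CPM (vertical axis, linear, a separate scale for each gene) in the 3 wild-type and 3 *mrg-1* mutant libraries, with mean ± SD in black. For *cpg-1* and *cpg-2* every mutant library lies below every wild-type library, *egg-3* is high in wild-type library 2 alone, and *perm-2*, *perm-4* and *egg-1* are highest in mutant library 3.

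*cpg-1* and *cpg-2* encode chondroitin proteoglycans with chitin-binding domains, which form the inner proteoglycan layer of the eggshell and act redundantly in the embryo. Both lie on chromosome III in WBcel235, *cpg-1* (WBGene00000465) on the plus strand at 4489359 to 4491392 and *cpg-2* (WBGene00015102) on the minus strand at 7102092 to 7103990. No annotated exon of another gene overlaps theirs. *cpg-2* had 147, 103 and 385 counts in wild-type libraries 1, 2 and 3, equal to 7.06, 3.78 and 14.1 CPM. In mutant libraries 1, 2 and 3 it had 5, 0 and 12 counts, equal to 0.195, 0 and 0.451 CPM. The highest mutant library thus stood well under the lowest wild-type one, and wild-type library 3, which stands apart from the others, was the highest. The mean was 8.30 ± 5.25 CPM in N2 and 0.215 ± 0.226 CPM in the mutant (SD, n = 3 each), a log2 fold change of -5.23 (SE 1.14, 95% interval -7.70 to -2.75, edgeR adjusted p = 0.0373), 37.4-fold lower. By its level per length *cpg-2* went from above 37.5% of the tested genes in the wild type to above 0.171% in the mutant. Fewer cells that hold a message and less of it per cell cannot be told apart in RNA from whole larvae.

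The call for *cpg-2* passed narrowly and needed nearly all libraries. It was kept without wild-type library 1 (edgeR adjusted p = 0.034) and lost without wild-type library 2 (0.0632) or 3 (0.0606) or any mutant library (0.178, 0.126 and 0.102 without 1, 2 and 3). The log2 fold change lay between -6.31 and -4.59 in these fits. That change was -6.31 without mutant library 3, -4.59 without wild-type library 3 and -4.63 without mutant library 2. The call was also lost in limma-voom (adjusted p = 0.0664) and in edgeR under library totals (0.0558), while DESeq2 gave an adjusted p of 2.2e-06.

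*cpg-1* was more even among the wild-type libraries than *cpg-2*, at 7.97, 6.45 and 6.68 CPM (166, 176 and 183 counts). The mutant libraries held 1.99, 3.55 and 1.61 CPM (51, 86 and 43 counts), each under the lowest wild-type value. The mean was 7.04 ± 0.821 against 2.38 ± 1.02 CPM (SD, n = 3 each). The fit gave a log2 fold change of -1.56 (SE 0.68, 95% interval -3.03 to -0.09), which did not pass the test (edgeR unadjusted p = 0.0394, adjusted p = 0.228). An unadjusted p under 0.05 was reached by 19.5% of all tested genes. Without mutant library 2, the highest mutant library, its log2 fold change was -1.94 (edgeR adjusted p = 0.35).

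The ratio of *cpg-2* to *cpg-1* per length within a library does not depend on the scaling of that library. It was 0.970, 0.641 and 2.30 in wild-type libraries 1, 2 and 3 and 0.107, 0 and 0.306 in mutant libraries 1, 2 and 3. Every mutant library thus had a lower ratio than any wild-type library, and the difference between the genes was not tested.

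**Figure D3:**
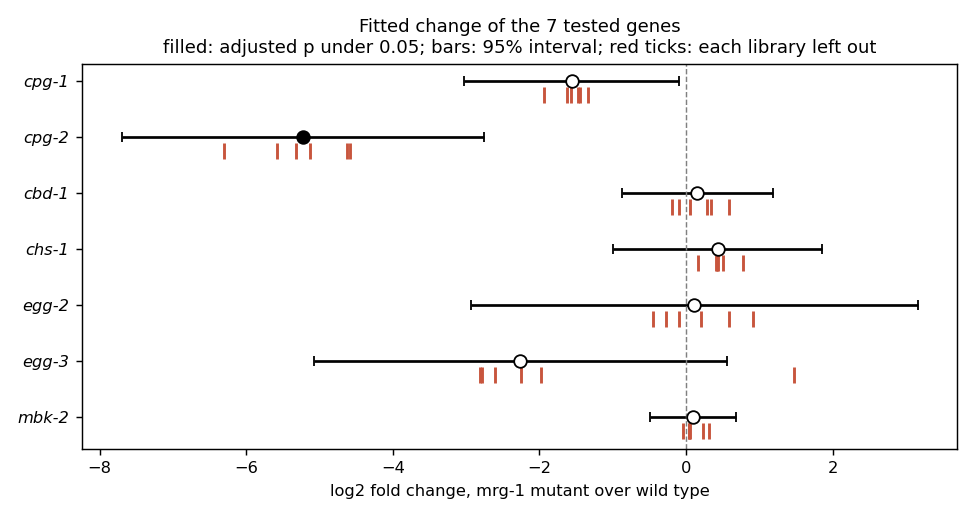
Fitted log2 fold change of the 7 tested genes, mutant over wild type (horizontal axis), with its 95% interval; the filled point passed an adjusted p of 0.05 and red ticks give the value with each library left out in turn. *cpg-2* and *cpg-1* stay below 0 with every library left out, and *egg-3* goes from -2.26 to 1.47 without wild-type library 2.

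The chitin layer and the vitelline layer are represented by *chs-1*, *cbd-1*, *perm-2* and *perm-4*. *chs-1* (WBGene00000496, chromosome I, plus strand, 7554855 to 7559916) encodes the chitin synthase that makes the eggshell's chitin. It was measured at 6.01, 4.18 and 2.37 CPM in the N2 libraries and at 5.15, 5.94 and 5.86 CPM in the mutant ones. Wild-type library 1 was as high as the mutant libraries and wild-type library 3 lowest of all. The log2 fold change was 0.43 (95% interval -1.0 to 1.86, edgeR adjusted p = 0.756), an interval that holds changes in both directions. *chs-1* shares 5 exon bases with *T25G3.3* on its own strand, which stood at 116 to 285 CPM.

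*cbd-1* (WBGene00010351, chromosome IV, plus strand, 11372991 to 11377627) encodes a chitin-binding protein of the vitelline layer. It was the highest member after *mbk-2* in the mutant by level per length, at 4.26 CPM per kb. The wild-type libraries held 24.5, 10.5 and 13.4 CPM and the mutant libraries 14.7, 25.9 and 13 CPM. Each group had a single high library, and the groups overlapped throughout. The log2 fold change was 0.15 (95% interval -0.88 to 1.18, edgeR adjusted p = 0.893). The interval of *cbd-1* and that of *cpg-2* do not meet, though the difference between these genes was not tested.

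*perm-2* (WBGene00016636, plus strand, 1126790 to 1128865) and *perm-4* (WBGene00016638, minus strand, 1121494 to 1125107) lie 1682 bases apart on chromosome IV. Their products join CBD-1 in the vitelline layer. Neither had enough counts to be tested. *perm-2* had 0 counts in each wild-type library and 5, 5 and 26 in mutant libraries 1, 2 and 3, or 0.195, 0.206 and 0.976 CPM. Summed over the groups this was 0 against 36 counts, 11.8 times a floor of 3 counts over the wild-type group (0.0397 CPM). This ratio takes the mutant counts as exact and is not a lower bound. Mutant library 3 gave 26 of the 36 counts, and without it the same ratio was 5.04 (10 counts). With no filter on low counts edgeR gave *perm-2* an adjusted p of 0.137, which is not a call. *perm-2* shares 25 exon bases with *C44B12.6* on the other strand. That gene stood at 0.048, 0 and 0 CPM in N2 and at 0.624, 0.619 and 0.676 CPM in the mutant. The strand setting of the counting is not given in the sources used here, so reads in the shared bases cannot be assigned. *perm-4* had 2, 0 and 0 counts in N2 and 0, 0 and 8 in the mutant, a ratio of 3.95 with an exact 95% binomial interval of 0.787 to 38.1 that covers counting error only.

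The oocyte surface is represented by *egg-1* and *egg-2*, which encode similar membrane proteins with LDL-receptor repeats that the oocyte needs for sperm entry. *egg-1* (WBGene00015083) lies on chromosome III at 5728180 to 5730159 on the plus strand, and *egg-2* (WBGene00019811) on the same chromosome at 7058527 to 7060583 on the minus strand, 41508 bases from *cpg-2*. Reads that match both copies may have been split or dropped in counting, so each gene's value is uncertain. *egg-1* had 5, 8 and 1 counts in the N2 libraries and 0, 0 and 39 in the mutant ones. A single mutant library thus held all of that group's *egg-1* counts, and the gene was not tested. *egg-2* stood at 0.865, 0.513 and 0 CPM in N2 and at 0.624, 0.742 and 0.113 CPM in the mutant. Its log2 fold change was 0.11 (95% interval -2.94 to 3.16, edgeR adjusted p = 0.975). With the counts of both genes added, the log2 fold change was 0.60 (edgeR adjusted p = 0.825).

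*perm-2*, *perm-4* and *egg-1*, which had too few counts to be tested, were highest in mutant library 3, at 26, 8 and 39 counts. The share of all genes that were highest in that library was not computed. The early embryo markers also summed highest in that library, at 11.5 CPM against 3.31 and 2.43 in mutant libraries 1 and 2. *vet-2* alone gave 8.6 of the 11.5 CPM of mutant library 3. The 6 yolk genes *vit-1* to *vit-6*, made by the adult intestine, summed to 11.3 CPM there, against 3.43 and 9.86 CPM in mutant libraries 1 and 2 and 0.330 to 4.82 CPM in the wild type. *vit-4* had 1 count in all, in mutant library 1. Other values were lowest of the mutant libraries in library 3. The sperm markers described below summed to 10.9 CPM there, against 25.1 and 17 CPM in mutant libraries 1 and 2. *egg-2* stood at 0.113 CPM there, against 0.624 and 0.742 CPM. The part of the early embryo, yolk and sperm RNA in the values of *perm-2*, *perm-4* and *egg-1* was not tested.

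*egg-3* and *mbk-2* act inside the oocyte. *egg-3* encodes a protein of the tyrosine phosphatase family that lacks catalytic activity and holds MBK-2 and CHS-1 at the oocyte cortex. *mbk-2* encodes a DYRK-family kinase that is released at the meiotic divisions and marks maternal proteins such as OMA-1 and MEI-1 for destruction. *egg-3* (WBGene00009701, chromosome II, minus strand, 10882408 to 10884441) had 17, 497 and 4 counts in wild-type libraries 1, 2 and 3, or 0.817, 18.2 and 0.146 CPM. The mutant libraries held 1.91, 0.784 and 1.31 CPM, between the wild-type extremes. Wild-type library 2 alone set the wild-type mean of 6.40 ± 10.2 CPM, against 1.34 ± 0.564 CPM in the mutant (SD, n = 3 each). The log2 fold change of -2.26 (95% interval -5.07 to 0.56, edgeR adjusted p = 0.361) turned to 1.47 without that library (edgeR adjusted p = 0.576). The part of the small RNA input, 2 ng a library, in values high in a single library, as for *egg-3* and *egg-1*, was not tested.

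The *egg-3* level in wild-type library 2 was 9.54 times that in the next library. Among the 28 tested genes of the members and of a list of oocyte and maternal regulators, *egg-3* and *pos-1* stood at 1 CPM or more in that library and at least 5 times higher than in each of the other 5, as were 32 (0.238%) of the 13460 tested genes; this measure was chosen after the values were seen. *pos-1*, a CCCH zinc-finger regulator of maternal messages, stood at 1.30, 9.28 and 0.0365 CPM in N2 and at 0.273, 0.495 and 1.5 CPM in the mutant. *mex-1*, another such regulator, stood at 2.26, 17 and 0.0365 CPM in N2 and at 4.99, 4.74 and 4.47 CPM in the mutant, so that it too was highest in wild-type library 2 and lowest in wild-type library 3. The list as a whole did not follow *egg-3*. Of its 21 tested genes, 5 were highest in wild-type library 2 and 4 were lowest there: *oma-2* (5.43, 0 and 4.2 CPM in N2 libraries 1, 2 and 3), *daz-1* (17.6, 0.587 and 5.07), *glp-1* (8.07, 0.66 and 2.74) and *spn-4* (9.66, 1.87 and 11.4). *cpg-1* and *cpg-2* did not share this pattern, and were lowest in wild-type library 2 among the wild-type libraries. *egg-3* shares 21 exon bases with *lurp-1* on the other strand, which was at 4.23, 19.8 and 28.5 CPM in N2 libraries 1, 2 and 3 and so does not follow *egg-3*.

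*mbk-2* (WBGene00003150, chromosome IV, plus strand, 13009158 to 13035961) was measured with 5749 to 10410 counts a library and was the most precisely measured member. It stood at 276, 245 and 380 CPM in the N2 libraries and at 352, 270 and 340 CPM in the mutant ones. The groups overlapped, with means of 301 ± 70.5 and 321 ± 43.7 CPM (SD, n = 3 each). The log2 fold change was 0.09 (SE 0.27, 95% interval -0.49 to 0.68, edgeR adjusted p = 0.883). By centred log2 CPM over the 6 libraries, the genes most like it were *flh-2*, *tsp-21*, *C35E7.2*, *vab-2* and *lip-1*, with mean absolute differences of 0.036 to 0.063. The mean of the 7 tested members was nearest to *map-1*, *nol-56*, *gars-1*, *Y48A6C.4* and *T19B10.5*, at 0.065 to 0.097. The centred values of *cpg-2* and *egg-3* ranged over 7.48 and 6.35 and those of *mbk-2* over 0.63, so *cpg-2* and *egg-3* weigh most in that mean. None of these 10 genes is on a list of oocyte, eggshell or germ cell genes used here. Those lists hold few of the 13460 tested genes, so their absence says little.

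**Figure D4:**
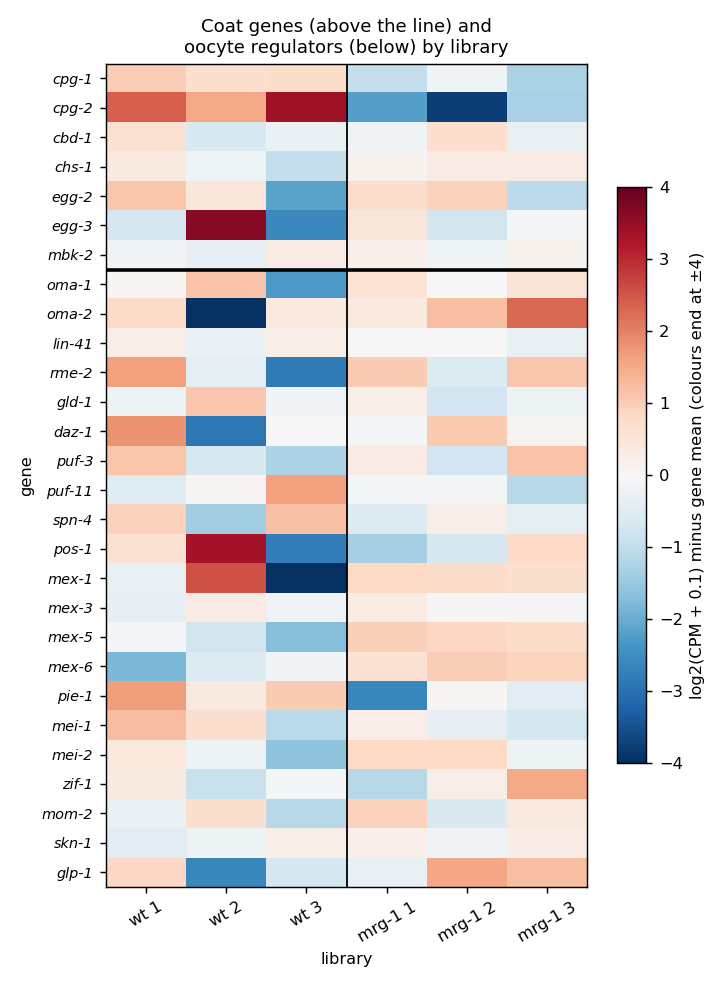
Level in each library (columns, 3 wild type then 3 *mrg-1* mutant) of the 7 tested coat genes, above the black line, and of the 21 tested oocyte and maternal regulators, below it, as log2(CPM + 0.1) minus the gene's own mean. *cpg-2* separates the groups most, while *egg-3*, *pos-1* and *mex-1* are high in wild-type library 2 and low in wild-type library 3, and *oma-2*, *daz-1*, *glp-1* and *spn-4* are lowest in wild-type library 2.

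Other genes of eggshell formation gave no call in edgeR. Of 21 further genes of the eggshell and its permeability barrier, 19 were tested and edgeR called 0; 2 were higher and 2 lower at an unadjusted p under 0.05, DESeq2 called 1 higher and limma-voom 1 higher. Their median log2 fold change was -0.09, beside -0.03 over all tested genes. The 2 lower were *fasn-1* and *perm-5* and the 2 higher *cpg-4* and *cpg-8*. The highest by CPM, with no regard to length, were the fatty acid synthase *fasn-1*, at 1555 ± 434 CPM in N2 and 825 ± 218 in the mutant (SD, n = 3 each), the acetyl-CoA carboxylase *pod-2*, at 526 ± 145 and 493 ± 28.8, and the cytochrome P450 reductase *emb-8*, at 448 ± 46.5 and 483 ± 47.7 CPM. Per length the order in N2 was *emb-8* (194 CPM per kb), *fasn-1* (184), *perm-5* (79.6) and *pod-2* (77.4). The enzymes of lipid metabolism among them are not particular to the oocyte. The gene called by DESeq2 and limma-voom was *cpg-8*, another gene of the *cpg* class (adjusted p = 0.00875 in DESeq2, 0.0885 in edgeR and 0.0481 in limma-voom). *cpg-8* was at 15.3, 21.1 and 3.32 CPM in N2 and at 43.8, 61.4 and 40.5 CPM in the mutant, the opposite direction to *cpg-1* and *cpg-2*. *egg-4* and *egg-5*, similar copies whose products join EGG-3 and hold MBK-2 inactive, had 0 to 4 and 2 to 12 counts a library and were not tested. *gna-2*, an enzyme of chitin precursor synthesis, was at 1.39, 2.68 and 1.53 CPM in N2 and at 0.897, 0.907 and 0.0376 CPM in the mutant (edgeR adjusted p = 0.48). These last genes were named after their values were seen.

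Genes for the chondroitin chains that CPG proteins carry gave 0 calls among 9 tested in edgeR, 1 lower at an unadjusted p under 0.05, and 0 in DESeq2 and limma-voom. That gene was *sqv-7*, a nucleotide-sugar transporter of the Golgi, at 64.9 ± 37.5 CPM in N2 and 24.6 ± 12 CPM in the mutant (SD, n = 3 each; edgeR adjusted p = 0.15). It was the highest of the list per length in N2, at 51.2 CPM per kb. Their median log2 fold change was -0.47, beside -0.03 over all tested genes, and 8 of the 9 fitted changes were below 0. The groups overlapped for all 9 genes. The highest by CPM, with no regard to length, were the chondroitin synthase *sqv-5*, at 103 ± 35.1 and 110 ± 15.2 CPM in wild type and mutant, and *mig-22*, the chondroitin polymerizing factor, at 89.9 ± 30.5 and 84.3 ± 6.57 CPM (SD, n = 3 each).

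Oocyte and maternal regulators, 22 genes with 21 tested, gave 0 calls in edgeR, where 1 was higher at an unadjusted p under 0.05, 1 higher in DESeq2 and 0 in limma-voom, with a median log2 fold change of 0.19. The gene was *mex-5* in both cases (adjusted p = 0.0495 in DESeq2 and 0.168 in edgeR). Their summed level was 798 to 986 CPM in N2 and 824 to 962 CPM in the mutant. Most of it came from *skn-1*, *lin-41* and *mex-3*, which larvae also use outside the germ line, at 467 ± 121, 242 ± 47.5 and 50.5 ± 12.2 CPM in N2 and 548 ± 82.3, 210 ± 24.2 and 53.5 ± 7.74 CPM in the mutant (SD, n = 3 each). The oocyte yolk receptor *rme-2* stood at 2.07, 0.44 and 0 CPM in N2 and at 1.29, 0.371 and 1.35 CPM in the mutant. *oma-1*, whose product MBK-2 marks for destruction, stood at 3.17 ± 2.85 and 3.63 ± 0.714 CPM (SD, n = 3 each). Its level did not separate the groups as that of *cpg-2* did.

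Of 16 markers of the primordial germ cells, 15 were tested and edgeR called 1, lower in the mutant. Over all tested genes 2.60% were called in either direction and 0.847% were called lower. At an unadjusted edgeR p under 0.05, 2 were lower, *cgh-1* and *car-1*, and 1 higher, *mes-1* (log2 fold change 2.04). Such a p was reached by 19.5% of all tested genes, so these counts are not read as a result about the list. Of the 15 fitted changes, 9 were below 0 and 6 above. *cgh-1*, the gene of an RNA helicase, fell from 640 ± 129 to 287 ± 46.3 CPM (SD, n = 3 each; log2 fold change -1.16, SE 0.27, edgeR adjusted p = 0.0444). In 8 of 16 alternatives the call was kept, among them DESeq2 (adjusted p = 0.00581) and limma-voom (0.0313). It was lost in edgeR without wild-type library 2 (adjusted p = 0.112) or 3 (0.0595) or mutant library 1 (0.194), 2 (0.22) or 3 (0.165), with log2 fold changes of -1.31 to -1.01 over the 6 fits that leave out a library. It was also lost under library totals (0.2), against wild-type library 1 alone (0.193) and in limma on the authors' deposited log2 values (0.295). DESeq2 called 2 of the list lower, *cgh-1* and *car-1* (adjusted p = 0.0176), and limma-voom 1. The list's median log2 fold change was -0.53. It summed to 872 to 1009 CPM in N2 and 444 to 531 CPM in the mutant, without overlap. *cgh-1* and the RNA-binding protein gene *car-1* made up most of these sums. By level per length in N2 they stood above 98% and 92.4% of the tested genes. RNA from whole larvae does not show which cells held their messages, so the sums do not measure germ cells. The other 14 genes summed to 261, 132 and 129 CPM in N2 libraries 1, 2 and 3 and to 120 to 137 CPM in the mutant, so that wild-type library 1 stood above the mutant range and wild-type libraries 2 and 3 within it. *nos-2* had 0 to 4 counts a library. The part of germ cell content in the levels of *cpg-1* and *cpg-2* was not tested.

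Sperm genes, 19 with 5 tested, gave 0 calls in edgeR, where 3 were higher at an unadjusted p under 0.05, 1 higher in DESeq2 and 0 in limma-voom. They summed to 4.42 to 4.67 CPM in N2 and 10.9 to 25.1 CPM in the mutant, and 6 of the 19 had no count in any library. The 3 were *spe-9*, *spe-41* and *fer-1*, and *fer-1* was the DESeq2 call. *fer-1* alone held 12.5 of the 25.1 CPM of mutant library 1. These 3 genes had 1 to 17 counts a library in N2 and 22 to 320 in the mutant. They passed the count filter mainly through the mutant libraries, which favoured a higher mutant level in advance. Over all tested genes 19.5% reached such a p in either direction, so the 3 of 5 is not read as a result. The yolk list, 6 genes with 3 tested, had 0 calls in edgeR, where 1 was higher at an unadjusted p under 0.05, 1 higher in DESeq2 and 0 in limma-voom. *vit-1* was that gene (adjusted p = 0.00339 in DESeq2 and 0.0742 in edgeR). It had 6 to 9 counts a library in N2 and 46 to 121 in the mutant, so it too passed the filter through the mutant libraries.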

How the data were processed

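The authors deposited raw counts per gene with a length for each gene, and normalized log2 values; the latter equal log2 of the count scaled to 24838462 per library plus 8. The genome build was ce10, per the submitters' processing notes. For the aligner, counter, annotation and strand setting the sources used here give nothing. Symbols came from a WormBase table (19182 of 20392 identifiers matched), and positions from the Ensembl annotation of WBcel235, looked up by identifier and not converted. No sequences were used.

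Genes were tested over the 6 libraries in R 4.3.3 with edgeR 4.0.16 (default filter, TMM, quasi-likelihood F test, group only, Benjamini-Hochberg 0.05) on the deposited counts. Standard errors are the absolute log2 fold change divided by the square root of F, with 95% intervals from t quantiles. The fit was tested on simulated data. Alternatives used DESeq2 1.42.0, limma 3.58.1, other scalings and filters, a replicate block, and libraries left out. Every pair of libraries differed by more than sampling noise (chi-square per gene at least 59.6). Floors and intervals cover counting error only, and a ratio to a floor takes the other group's counts as exact. All sample columns were mapped.

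The members and lists were chosen with earlier results of these data known. Named are the 10 members, any called gene of the other 8 lists or else the 2 to 4 with the highest mean CPM, the 5 genes most like the members' mean and *mbk-2* (log2 CPM, prior count 2), and genes whose reason is given in the text. Figures were drawn with matplotlib 3.10.9.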

Additional observations from a re-analysis of the deposited data

How the results depend on the processing

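Over 16 alternatives, 1 of them (wild-type library 1 alone against the mutant) chosen after seeing the data, *cpg-2* stayed lower (log2 fold change -6.31 to -3.71) and was called in 8. Its call was lost, leaving 0 members called, in limma-voom (adjusted p = 0.0664), under library totals (0.0558) and against wild-type library 1 alone (0.0662). With each library left out in turn, 0 to 1 members were called in edgeR. *cpg-1* stayed between -1.94 and -1.21 and was called in none (adjusted p = 0.0972 in DESeq2 to 0.504). The number of genes called in all, 350, was 1330 in DESeq2, 215 under library totals, 734 with no filter, and 35 to 1043 with a library left out. Library totals split the calls into 204 higher and 11 lower against 236 and 114, and limma on the authors' deposited log2 values into 294 and 17; under these scalings the median over all tested genes went from -0.03 to 0.27 and 0.35 (log2 fold change).

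Fitted changes of uncalled members turned sign as follows. Against wild-type library 1 alone *cbd-1* was -0.44, *chs-1* -0.07, *egg-2* -0.78 and *egg-3* 0.72. Leaving out a library put *cbd-1* between -0.19 and 0.58, *egg-2* between -0.45 and 0.91, *egg-3* between -2.81 and 1.47 and *mbk-2* between -0.04 and 0.32. With the replicate number as a block, *egg-3* was 0.37 and *cpg-2* -5.64 (edgeR adjusted p = 0.0122), with 1 member and 431 genes called in all. Same-numbered libraries correlated at -0.0048 to 0.093 in their deviations from the group means, and differently numbered ones at -0.0813 to 0.0461. Values this few cannot tell whether same-numbered samples were prepared together, so pairing was not settled. The cause of these shifts was not tested. Low counts limit *perm-2*, *perm-4*, *egg-1* and *egg-2* most.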
